A study of Mus musculus with 21 samples.

Results

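G2 and mitosis genes are the transcripts that a dividing cell builds up after copying its DNA and uses to enter and leave mitosis. They are described here through a set of genes taken by symbol for their known roles, 49 of the 37310 genes in the deposited tables. All 49 passed the filter on low counts and were among the 16050 genes tested. The 49 genes fall into 9 roles, from the cyclins and their kinase to the condensins that fold chromosomes.

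In a dividing cell, cyclin B binds and activates the kinase Cdk1, the phosphatases Cdc25b and Cdc25c remove its inhibitory phosphates, and Plk1, Aurka and Aurkb carry the cell through mitosis. The spindle checkpoint holds the anaphase promoting complex back until every chromosome is attached, and Cdc20 then lets that complex degrade cyclin B and securin. Transcription of many of these genes peaks late in the cycle through the MuvB complexes with B-Myb and Foxm1, which act at a promoter element named the cell cycle homology region (CHR) and often together with the factor NF-Y at CCAAT boxes. In the intestine, Lgr5 marks the crypt base columnar stem cells, which divide continuously.

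Bulk RNA sequencing was done on intestinal Lgr5-EGFP cells sorted for the brightest fluorescence, in 21 libraries and 7 groups of 3. All mice carried the Lgr5EGFPcre-ERT2 allele, which drives EGFP from Lgr5, and were 3 months old after being kept on a purified diet since weaning. AIN_VdrKO mice were fed AIN76A and are labelled as lacking the vitamin D receptor. AINlowVitD mice had AIN with a vitamin D amount of 0.11 IU/g, NWD1VitD mice had NWD1 with 2.3 IU/g of vitamin D, and NWD1Ca mice had NWD1 with 7 mg/g of calcium, all written per body weight in the labels. The remaining groups were fed NWD2, NWD1 and AIN, where AIN is the purified AIN76A control diet and the sources used here do not say what NWD1 and NWD2 contain. AIN_VdrKO held males only and NWD1Ca females only, while each other group held both sexes.

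The promoters of these genes share letters that the choice of genes did not use. RefSeq windows from 250 bases before to 50 bases after a gene start (build GRCm38.p6) were found for 40 of the 49 genes, in 43 windows. CCAAT, on either strand, stood in 35 of the 43 windows (81.4%) and in 37.4% of 32851 windows of all genes. The CHR, searched as TTTGAA or TTCGAA on both strands, stood in 35 windows (81.4%), against 19.2% of all windows. A CHR together with at least 2 CCAAT boxes stood in 21 windows (48.8%), against 2.3% of all windows. Of the 46 CHR matches, 32 lay within 50 bases of the gene start. The share over all windows is not given for this position, and the overlapping windows of Bub3, Ect2 and Prc1 can count a site more than once. E2F letters (TTCCCGC or TTGGCGC) stood in 16.3% of these windows and 6.8% of all, and the forkhead letters TGTTTAC in 4.7% and 3.6%. CCAAT, CHR, E2F and forkhead letters share no search word, and a match is a description of the sequence and not a measured binding site.

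The windows below show how these letters lie in 6 genes with a CHR and at least 2 CCAAT boxes, the first by order of the gene list. Each runs 5′ to 3′ on the strand of its gene, from 250 bases before to 50 after the start; capitals mark each match to CCAAT or to the CHR, read on either strand.
Aurka (chr2:172370521-172370820, minus strand): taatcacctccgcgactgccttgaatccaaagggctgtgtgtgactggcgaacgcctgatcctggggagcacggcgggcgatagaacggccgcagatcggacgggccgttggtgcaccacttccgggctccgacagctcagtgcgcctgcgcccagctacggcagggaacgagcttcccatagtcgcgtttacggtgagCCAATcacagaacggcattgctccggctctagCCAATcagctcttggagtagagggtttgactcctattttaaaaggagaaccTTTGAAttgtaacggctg
Ccnb2 (chr9:70421505-70421804, minus strand): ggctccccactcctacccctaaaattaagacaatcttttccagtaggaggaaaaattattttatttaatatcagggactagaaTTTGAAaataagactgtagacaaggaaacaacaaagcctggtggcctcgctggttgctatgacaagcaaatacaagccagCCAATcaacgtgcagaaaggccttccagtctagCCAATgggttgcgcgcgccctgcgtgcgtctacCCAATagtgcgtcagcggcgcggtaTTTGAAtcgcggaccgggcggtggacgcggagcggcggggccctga
Cdk1 (chr10:69352863-69353162, minus strand): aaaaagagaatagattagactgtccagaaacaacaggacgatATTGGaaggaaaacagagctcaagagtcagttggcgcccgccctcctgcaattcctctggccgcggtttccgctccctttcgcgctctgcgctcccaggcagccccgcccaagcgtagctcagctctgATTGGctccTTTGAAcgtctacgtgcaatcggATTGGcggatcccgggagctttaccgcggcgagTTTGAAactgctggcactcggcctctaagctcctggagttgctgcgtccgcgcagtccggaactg
Cdc20 (chr4:118437294-118437593, minus strand): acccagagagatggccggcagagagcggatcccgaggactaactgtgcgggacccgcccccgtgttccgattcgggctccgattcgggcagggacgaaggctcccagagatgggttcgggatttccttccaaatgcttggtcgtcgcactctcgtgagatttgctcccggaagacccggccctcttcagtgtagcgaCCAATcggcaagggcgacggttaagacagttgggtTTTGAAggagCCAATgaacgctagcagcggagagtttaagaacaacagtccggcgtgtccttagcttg
Bub1 (chr2:127831810-127832109, minus strand): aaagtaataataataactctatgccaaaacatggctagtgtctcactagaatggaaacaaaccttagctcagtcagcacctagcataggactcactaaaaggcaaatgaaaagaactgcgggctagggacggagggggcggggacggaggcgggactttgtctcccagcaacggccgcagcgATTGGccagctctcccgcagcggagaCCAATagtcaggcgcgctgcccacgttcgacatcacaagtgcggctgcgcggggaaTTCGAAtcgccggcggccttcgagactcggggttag
Bub3 (chr7:131560120-131560419, plus strand): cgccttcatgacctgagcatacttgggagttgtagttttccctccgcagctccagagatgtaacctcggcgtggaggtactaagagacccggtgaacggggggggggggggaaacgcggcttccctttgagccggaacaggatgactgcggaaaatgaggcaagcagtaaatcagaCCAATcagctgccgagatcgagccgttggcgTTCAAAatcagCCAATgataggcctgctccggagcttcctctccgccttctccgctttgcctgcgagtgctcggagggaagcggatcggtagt
In Ccnb2, cyclin B2, the CCAAT boxes begin 87, 54 and 21 bases before the start and a CHR follows 4 bases after it. In Cdk1 the boxes begin 208, 80 and 48 bases before the start and the CHR matches 71 and 15 bases before it.

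Windows of 2 genes with neither motif are shown for contrast; the absence of these letters concerns this window only.
Nusap1 (chr2:119618048-119618347, plus strand): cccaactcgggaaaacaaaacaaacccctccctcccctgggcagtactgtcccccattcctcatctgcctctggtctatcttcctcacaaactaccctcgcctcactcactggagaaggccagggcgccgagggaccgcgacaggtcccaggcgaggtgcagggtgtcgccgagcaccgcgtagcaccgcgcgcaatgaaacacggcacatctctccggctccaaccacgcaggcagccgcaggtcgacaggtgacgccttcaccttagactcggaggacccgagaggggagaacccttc
Birc5 (chr11:117848987-117849286, plus strand): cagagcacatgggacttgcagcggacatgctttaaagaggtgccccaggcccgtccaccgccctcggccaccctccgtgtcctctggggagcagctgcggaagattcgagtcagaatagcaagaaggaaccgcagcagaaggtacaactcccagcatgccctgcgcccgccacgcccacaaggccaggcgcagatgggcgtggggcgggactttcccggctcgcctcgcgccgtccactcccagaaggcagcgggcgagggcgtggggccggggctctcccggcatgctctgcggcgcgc

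As a whole the libraries divided into 2 sets that cut across the diets, and no batch is named for them in the labels. NWD1VitD, NWD1Ca and AINlowVitD formed the second set and NWD2, NWD1 and AIN the first, with AIN_VdrKO between them on a first principal component that held 43.9% of the variance. The share of mitochondrial ribosomal RNA was 2.95% to 5.07% of gene counts in the second set, 1.38% to 2.80% in AIN_VdrKO and 0.234% to 0.965% in the first set. Gene counts per library ranged from 19889795 to 115435120. Of 78 ERCC spike-in RNAs, synthetic RNAs added to the samples, 44 differed in AINlowVitD against AIN, 51 in NWD1Ca against NWD1, 54 in NWD1VitD against NWD1, 36 in AIN_VdrKO against AINlowVitD and 7 in AIN_VdrKO against AIN (edgeR, with AIN 2 left out because it held 12 spike-in counts). In the 5 comparisons within a set edgeR called 0, with 0 to 3 at an unadjusted p under 0.05. Spike-ins held 24.7% of gene and spike-in counts in NWD1 1 and 20.4% in NWD1 2. They held 5.24% in NWD1 3 and at most 6.48% in any library of another group. NWD1 is the reference for NWD1VitD and NWD1Ca, and the part of these shares in those comparisons was not tested. In comparisons across the sets, diet and set cannot be told apart. In AIN_VdrKO against AIN and against AINlowVitD, genotype cannot be told apart from the place of the AIN_VdrKO libraries between the sets. Vdr (ENSMUSG00000022479.9), the targeted gene, had 297, 482 and 247 CPM (counts scaled to the library size by TMM) in the libraries labelled AIN_VdrKO, against 338, 373 and 746 CPM in AIN libraries. Its log2 fold change of -0.56 ± 0.37 (SE) did not pass the test (edgeR adjusted p = 0.348). Counts cover the whole gene and the sources used here do not say which part was deleted, so this level neither checks nor contradicts the label. Lgr5 itself was detected in every library, at 24.0 to 44.9 CPM in AIN_VdrKO, 11.4 to 35.8 CPM in the second set and 9.49 to 87.2 CPM in the first set.

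Per unit of length, Bub3, a checkpoint protein that docks Bub1 and Bub1b on kinetochores, had the highest mean of the 49 transcripts over the 21 libraries, at 182 TPM (a length-corrected share of all transcripts). Ube2c, the ubiquitin-conjugating enzyme of the anaphase promoting complex, followed at 175 TPM and Ccnb2, cyclin B2, at 149 TPM. Spc24 and Cdc20 stood at 115 TPM each, and the 2 lowest were Foxm1 at 5.07 TPM and Espl1, the protease separase, at 4.88 TPM. Bub3 had the highest group mean in NWD1VitD, NWD2, NWD1 and AIN. Ube2c led in AIN_VdrKO (211 ± 60.1 TPM, beside 173 ± 72.9 for Bub3) and in NWD1Ca (98.8 ± 21.5, beside 66.7 ± 7.00), and Spc24 in AINlowVitD (72.2 ± 18.1, beside 61.1 ± 3.40). The lowest count of any of the genes in any library was 97 reads, for Kif20a.

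Plk1, the kinase that drives mitotic entry and spindle assembly, is given library by library. It had 69.4, 64.6 and 80.3 CPM in AIN_VdrKO, 36.3, 42.5 and 40.6 CPM in AINlowVitD, 42.5, 27.9 and 28.4 CPM in NWD1VitD and 40.5, 58.1 and 61.3 CPM in NWD1Ca. It had 168, 106 and 91.6 CPM in NWD2, 149, 169 and 105 CPM in NWD1 and 121, 113 and 103 CPM in AIN. Every library of the second set lay below every AIN_VdrKO library, and every AIN_VdrKO library lay below every library of the first set. In TPM the group means of Plk1 were 58.8 ± 22.8 in AIN_VdrKO, 16.4 ± 1.82 in AINlowVitD, 13.9 ± 5.26 in NWD1VitD, 26.6 ± 6.30 in NWD1Ca, 155 ± 73.7 in NWD2, 175 ± 36.7 in NWD1 and 104 ± 11.4 in AIN (SD, n = 3 each).

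Ccnb1, cyclin B1, averaged 107 ± 22.6 CPM in AIN_VdrKO, 49.3 ± 8.11 in AINlowVitD, 42.9 ± 13.9 in NWD1VitD, 59.9 ± 9.59 in NWD1Ca, 136 ± 49.9 in NWD2, 162 ± 40.0 in NWD1 and 153 ± 26.9 in AIN (SD, n = 3 each). Aurka, the centrosome and spindle kinase, averaged 59.9 ± 14.8 CPM in AIN_VdrKO, 32.7 ± 2.09 in AINlowVitD, 26.3 ± 7.17 in NWD1VitD, 45.2 ± 8.46 in NWD1Ca, 79.1 ± 31.0 in NWD2, 91.9 ± 25.2 in NWD1 and 86.0 ± 16.7 in AIN. Cdk1, the kinase that cyclin B activates, averaged 145 ± 13.7 CPM in AIN_VdrKO, 95.1 ± 13.0 in AINlowVitD, 72.9 ± 28.5 in NWD1VitD, 112 ± 14.9 in NWD1Ca, 133 ± 52.6 in NWD2, 192 ± 79.8 in NWD1 and 173 ± 65.5 in AIN. For all of Ccnb1, Aurka and Cdk1 the lowest group mean was that of NWD1VitD and the highest that of NWD1. NWD1 libraries themselves had 244, 232 and 100.3 CPM of Cdk1, with NWD1 3 below every AIN_VdrKO library.

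Mki67, the surface protein of mitotic chromosomes known as Ki-67, had another order. It averaged 176 ± 24.7 CPM in AIN_VdrKO, 111 ± 23.2 in AINlowVitD, 108 ± 23.0 in NWD1VitD, 188 ± 46.3 in NWD1Ca, 104 ± 22.9 in NWD2, 133 ± 21.1 in NWD1 and 88.4 ± 12.0 in AIN. In CPM its mean was lowest in AIN and highest in NWD1Ca, and the neighbouring means of NWD2, NWD1VitD and AINlowVitD differed by less than their SDs. That order depended on the scale: in TPM, Mki67 averaged 31.8 ± 13.3 in AIN_VdrKO, 10.1 ± 2.56 in AINlowVitD, 9.95 ± 3.36 in NWD1VitD, 20.5 ± 5.58 in NWD1Ca, 28.7 ± 9.95 in NWD2, 37.2 ± 10.4 in NWD1 and 18.3 ± 6.11 in AIN, lowest in NWD1VitD and highest in NWD1. Top2a, the topoisomerase that untangles sister chromatids, averaged 231 ± 12.6 CPM in AIN_VdrKO, 176 ± 48.5 in AINlowVitD, 157 ± 38.7 in NWD1VitD, 288 ± 71.1 in NWD1Ca, 206 ± 71.6 in NWD2, 239 ± 57.2 in NWD1 and 187 ± 1.18 in AIN. Its order depended on the scale too. In TPM, Top2a averaged 34.9 ± 9.51 in NWD1Ca and 74.1 ± 24.8 in NWD1, and AIN libraries had 36.5, 39.4 and 51.5 TPM. Foxm1, a transcription factor of G2 genes, averaged 17.5 ± 4.18 CPM in AIN_VdrKO, 9.77 ± 1.04 in AINlowVitD, 8.82 ± 2.92 in NWD1VitD, 14.1 ± 1.11 in NWD1Ca, 17.4 ± 5.03 in NWD2, 17.2 ± 2.58 in NWD1 and 16.6 ± 8.36 in AIN. Its lowest means were those of NWD1VitD and AINlowVitD. Bub3 averaged 195 ± 27.1 CPM in AIN_VdrKO, 139 ± 7.85 in AINlowVitD, 131 ± 9.67 in NWD1VitD, 125 ± 11.2 in NWD1Ca, 243 ± 83.6 in NWD2, 284 ± 58.7 in NWD1 and 223 ± 38.5 in AIN.

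**Figure D1:**
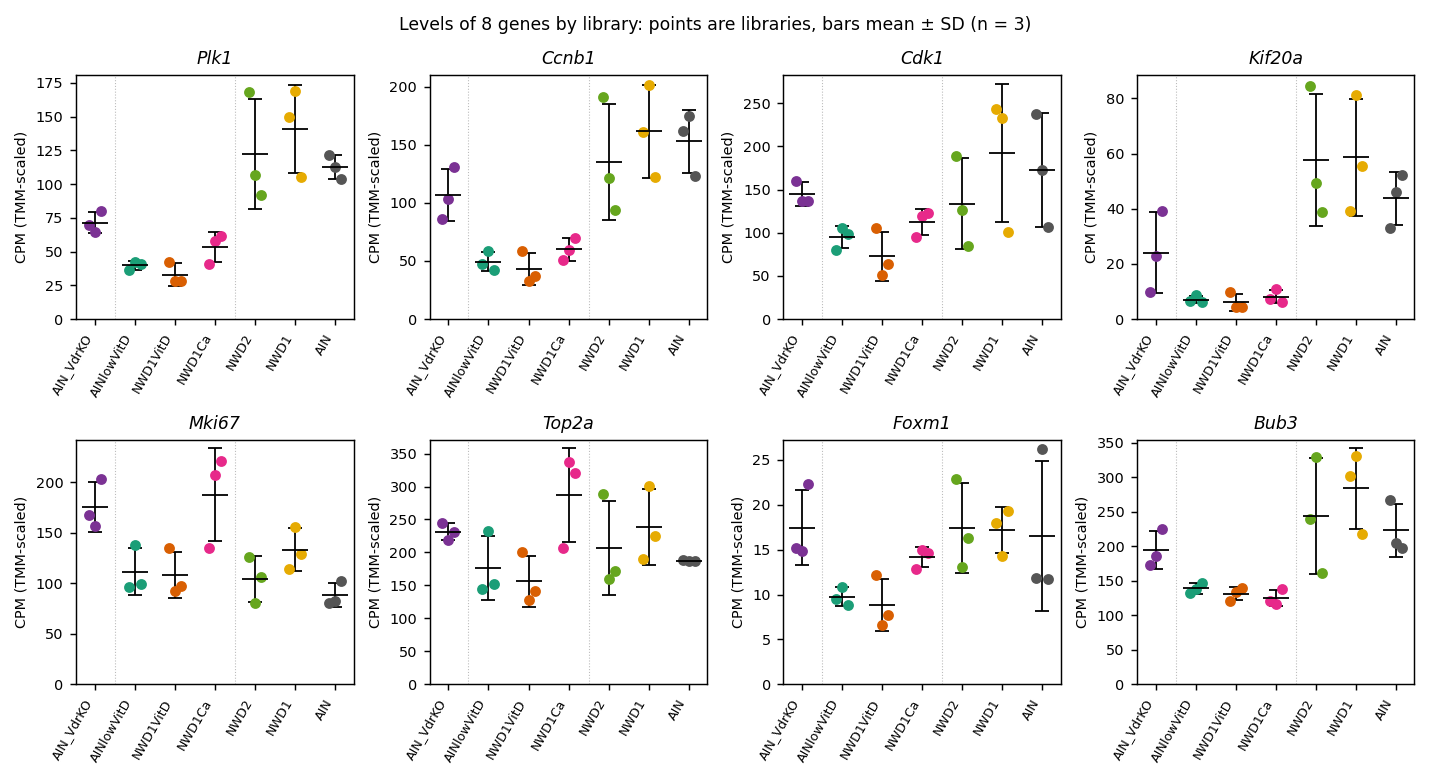
TMM-scaled CPM (vertical axis, from 0) of 8 genes in the 7 groups (horizontal axis), with 1 point per library and bars for mean ± SD (n = 3); dotted lines separate AIN_VdrKO, the second set and the first set. Plk1, Ccnb1 and Kif20a sat lowest in AINlowVitD, NWD1VitD and NWD1Ca, while Mki67 and Top2a did not follow that order on this scale.

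AINlowVitD against AIN asks what low vitamin D in the control diet does to Lgr5 cells. Of the 49 genes, 27 fell in AINlowVitD (edgeR adjusted p under 0.05 over 16050 genes), against 16.3% of all genes tested that fell in this comparison, and the other 22 did not pass the test. Their median log2 fold change was -0.94, beside -0.10 over all genes tested. In 33 of the 49 genes every AINlowVitD library lay below every AIN library, which held for 25.3% of all genes tested. A bulk library cannot tell fewer cells in G2 and mitosis from less of this RNA per cell.

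The fall reached all 3 mitotic kinases and all 5 spindle checkpoint genes. Plk1 fell by 1.51 ± 0.25 on the log2 scale (edgeR adjusted p = 0.000402). Bub1, the checkpoint kinase of the kinetochore, had 8.54, 10.7 and 8.31 CPM in AINlowVitD, against 24.9, 38.1 and 39.0 CPM in AIN. The groups did not overlap, and its log2 fold change was -1.89 ± 0.34 (edgeR adjusted p = 0.0007). Bub1b, the checkpoint protein BubR1, had 18.7, 26.5 and 22.3 CPM in AINlowVitD, against 55.0, 73.4 and 92.9 CPM in AIN, again without overlap, a log2 fold change of -1.70 ± 0.33 (edgeR adjusted p = 0.00113). Bub3 fell least of the checkpoint genes, with a log2 fold change of -0.70 ± 0.24 (edgeR adjusted p = 0.0342).

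Of 6 genes of the central spindle and cytokinesis, 5 fell. Kif20a, the kinesin that brings Plk1 and the passenger complex to the midzone, had 6.56, 8.60 and 6.07 CPM in AINlowVitD, against 33.0, 46.0 and 52.1 CPM in AIN. The highest AINlowVitD library was far below the lowest AIN library, and the log2 fold change was -2.60 ± 0.45 (edgeR adjusted p = 0.000572), the most negative of the 49. Its exons overlap 977 bases of Cdc23 on the other strand, a gene that also fell, and reads of those bases cannot be told apart. Racgap1, which forms centralspindlin with Kif23, had 28.6, 32.9 and 24.8 CPM in AINlowVitD, against 71.6, 100.3 and 73.2 CPM in AIN, and its log2 fold change was -1.51 ± 0.30 (edgeR adjusted p = 0.0013). Prc1, which bundles the midzone microtubules, was the member of this role that did not pass, at -0.11 ± 0.30 (edgeR adjusted p = 0.808).

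Of 8 genes of the cyclin and Cdk1 role, 4 fell, namely Ccnb1, Cdk1, Cdc25b and Cdc25c. Cdc25b had 17.6, 19.9 and 17.3 CPM in AINlowVitD, against 52.8, 47.1 and 56.9 CPM in AIN. The groups were well apart, and the log2 fold change was -1.51 ± 0.26 (edgeR adjusted p = 0.000514). Ccnb1 had 47.6, 58.2 and 42.2 CPM in AINlowVitD, against 162, 174 and 123 CPM in AIN, and fell by 1.64 ± 0.29 on the log2 scale (edgeR adjusted p = 0.0007). Cyclin A2, Ccna2, which also works in S phase, did not pass, at -0.24 ± 0.49 (edgeR adjusted p = 0.748); its AIN libraries, at 53.5, 203 and 36.2 CPM, had the largest ratio of highest to lowest library of any of the 49 genes within a group.

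In the chromosomal passenger complex only Aurkb, its kinase, passed. It had 25.0, 35.3 and 37.9 CPM in AINlowVitD, against 112, 96.6 and 75.3 CPM in AIN, a log2 fold change of -1.57 ± 0.29 (edgeR adjusted p = 0.000837). Its partners Birc5 (survivin), Cdca8 (borealin) and Incenp stood at -0.48 ± 0.39, -0.36 ± 0.27 and -0.70 ± 0.28. In the kinetochore, 2 of 7 genes fell, Ndc80 and Nuf2, which pair in the microtubule-binding Ndc80 complex, while the other pair of that complex, Spc24 and Spc25, stood at 0.19 ± 0.43 and -0.70 ± 0.35. Of 6 spindle motors and microtubule binders 3 fell, the kinesins Kif11, Kif2c and Kif4, while Nusap1, Tpx2 and Hmmr stood between -0.49 ± 0.25 and -0.68 ± 0.34. Of 4 anaphase genes, Cdc20 and Espl1 fell. Of 6 chromosome structure genes, the condensin subunits Ncapd2 and Ncapg fell by 1.47 ± 0.32 and 1.52 ± 0.31 on the log2 scale. The condensin ATPases Smc2 and Smc4 stood at 0.06 ± 0.30 and 0.28 ± 0.31, Top2a at -0.08 ± 0.29 and Mki67 at 0.34 ± 0.25, and none of these 4 passed.

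The summed level of the goblet list was 46532 to 65850.0 CPM in AINlowVitD, against 15716 to 32342 CPM in AIN, with 2 of its 8 genes higher, where 15.1% of all genes tested were higher. The enteroendocrine list summed to 6376 to 10148 CPM in AINlowVitD, against 2433 to 2609 CPM in AIN, with 4 of 11 genes higher. The Paneth list summed to 10958 to 52222 CPM in AINlowVitD, against 4581 to 6534 CPM in AIN, with 3 of 9 higher, and no gene of these lists was at 0. The enterocyte list summed to 20738 to 69224 CPM in AINlowVitD, against 17961 to 23242 CPM in AIN, with 1 of 13 higher, and the Lgr5 stem cell list to 1195 to 3049 CPM in AINlowVitD, against 2494 to 4593 CPM in AIN, with 1 of 12 higher. A sum follows its most abundant genes, such as Fabp1 of the enterocyte list, at 27185 CPM in AINlowVitD and 2911 CPM in AIN. Gene by gene, the median log2 fold change was 0.15 for the enterocyte list (7 of 13 positive) and 0.25 for goblet (5 of 8). It was 0.15 for enteroendocrine (7 of 11), 0.81 for Paneth (6 of 9) and 0.02 for Lgr5 stem cell genes (6 of 12). The part of these lists in the 27 falls was not tested. Without AIN 1, AIN 2 and NWD1 1, which lay nearer to AIN_VdrKO than the rest of the first set did on that component, AIN was 1 library, taken to vary like the other groups. There 14 genes fell and 1 rose, and Ccnb1, at -1.02 (edgeR adjusted p = 0.0561), and Aurkb, at -0.81 (0.0889), no longer passed; without AINlowVitD 3, 17 fell. Scaled as TPM, the median of all genes shifts by -0.96 on the log2 scale, and 44 of the 49 genes fell by limma on log2(TPM + 1). The share of all genes that fell by limma is not given here, so this count is not set against it. The values above are relative to TMM scaling.

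NWD1VitD against NWD1 asks what vitamin D added to the NWD1 diet does. Of the 49 genes, 36 fell in NWD1VitD, against 20.6% of all genes tested, and the other 13 did not pass. The median log2 fold change was -1.24, beside -0.03 over all genes tested, and 31 genes had every NWD1VitD library below every NWD1 library, against 23.7% of all genes tested. Plk1 fell by 2.09 ± 0.25 on the log2 scale (edgeR adjusted p = 1.98e-05). Aurkb had 31.7, 18.1 and 20.3 CPM in NWD1VitD, against 113, 141 and 76.5 CPM in NWD1. Its groups did not overlap, and its log2 fold change was -2.22 ± 0.30 (edgeR adjusted p = 4.17e-05).

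All 6 spindle motors and microtubule binders fell, with log2 fold changes from -2.23 ± 0.43 for Kif2c, a microtubule depolymerase, to -0.83 ± 0.25 for Hmmr. All 3 mitotic kinases and all 5 checkpoint genes fell as well. Bub1b had 27.0, 15.6 and 15.4 CPM in NWD1VitD, against 55.5, 112 and 97.0 CPM in NWD1, a log2 fold change of -2.21 ± 0.33 (edgeR adjusted p = 9.60e-05). Of the cytokinesis genes, 5 of 6 fell, led by Kif20a, with 9.68, 4.32 and 4.27 CPM in NWD1VitD, against 39.2, 81.2 and 55.5 CPM in NWD1. The lowest NWD1 library was above every NWD1VitD library, and the log2 fold change of Kif20a was -3.29 ± 0.46 (edgeR adjusted p = 6.12e-05). Racgap1 had 32.4, 20.5 and 26.2 CPM in NWD1VitD, against 79.7, 141 and 101 CPM in NWD1, and fell by 2.03 ± 0.30 on the log2 scale (edgeR adjusted p = 8.85e-05).

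Of the cyclin and Cdk1 genes, 6 of 8 fell. Cdc25b had 17.2, 18.4 and 33.2 CPM in NWD1VitD, against 76.9, 94.4 and 83.8 CPM in NWD1, a log2 fold change of -1.90 ± 0.26 (edgeR adjusted p = 5.06e-05). Ccnb1 had 58.8, 32.6 and 37.4 CPM in NWD1VitD, against 161, 202 and 122 CPM in NWD1, a log2 fold change of -1.91 ± 0.30 (edgeR adjusted p = 0.000119). Neither gene's groups overlapped. Foxm1 fell by 0.95 ± 0.33 (edgeR adjusted p = 0.0268), and Ccna2 and Cdca3 did not pass. Cdc20, the activator of the anaphase promoting complex, had 61.3, 47.2 and 41.0 CPM in NWD1VitD, against 204, 238 and 125 CPM in NWD1, a log2 fold change of -1.91 ± 0.30 (edgeR adjusted p = 0.00013). Pttg1, securin, was the 1 gene of the 49 with a positive log2 fold change, 0.18 ± 0.36, and did not pass (edgeR adjusted p = 0.715).

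Of the passenger complex 3 of 4 genes fell, of the kinetochore 3 of 7, of the anaphase genes 3 of 4 and of the chromosome structure genes 2 of 6. Ncapd2 and Ncapg again were these 2, at -2.07 ± 0.33 and -1.99 ± 0.32, while Smc2, Smc4, Top2a and Mki67 stood at -0.40 ± 0.30, -0.11 ± 0.31, -0.61 ± 0.29 and -0.30 ± 0.25. The enterocyte list summed to 29281 to 56546 CPM in NWD1VitD, against 2476 to 5900.2 CPM in NWD1, with 7 of 13 genes higher, where 19.9% of all genes tested were higher. The goblet list summed to 42642 to 95210.0 CPM in NWD1VitD, against 9652 to 25279 CPM in NWD1, with 3 of 8 higher. The Lgr5 stem cell list summed to 1363 to 3521 CPM in NWD1VitD, against 7257 to 10208 CPM in NWD1, with 6 of 12 lower and 1 higher. Their part in the 36 falls was not tested. With values taken as TPM the median of all genes shifts by -1.38 on the log2 scale and all 49 genes fell by limma on log2(TPM + 1). That fit differs from the edgeR fit in both scaling and model. Its share over all genes is not given here, so the count cannot be read as particular to these genes.

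NWD1Ca against NWD1 asks what added calcium does, and shares the NWD1 libraries with the comparison above. Of the 49 genes, 17 fell in NWD1Ca, against 14.9% of all genes tested, and the other 32 did not pass. The median log2 fold change was -0.49, beside -0.04 over all genes tested, and 22 genes had every NWD1Ca library below every NWD1 library, against 24.4% of all genes tested. Kif20a had 7.33, 10.8 and 6.19 CPM in NWD1Ca, against the NWD1 values above, a log2 fold change of -2.63 ± 0.48 (edgeR adjusted p = 0.000784). Cdc25b had 20.7, 23.6 and 27.3 CPM in NWD1Ca, a log2 fold change of -1.73 ± 0.28 (edgeR adjusted p = 0.000335). All 3 NWD1Ca libraries of both genes lay below all 3 of NWD1.

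Plk1 fell by 1.2 ± 0.27 on the log2 scale in NWD1Ca (edgeR adjusted p = 0.00354), Aurkb by 1.28 ± 0.32, Racgap1 by 1.28 ± 0.32 and Ccnb1 by 1.27 ± 0.32 (edgeR adjusted p = 0.00599, 0.00631 and 0.00698). Bub1 and Bub1b fell by 1.40 ± 0.35 and 1.36 ± 0.34 (edgeR adjusted p = 0.00664 and 0.00669). By role, 3 of 8 cyclin and Cdk1 genes fell, 1 of 3 kinases, 3 of 5 checkpoint genes, 1 of 4 passenger genes, 3 of 6 motors, 3 of 6 cytokinesis genes, 1 of 4 anaphase genes and 2 of 6 chromosome structure genes, and no kinetochore gene was among them, with Nuf2 (lower) and Cenpf (higher) at an unadjusted p under 0.05. Positive log2 fold changes were found for 14 genes, from 0.02 ± 0.30 for Cdca8 to 0.84 ± 0.34 for Cenpf, a large kinetochore protein, with Mki67 at 0.55 ± 0.28 and Spc24 at 0.68 ± 0.49, and none passed. The enterocyte list summed to 21021 to 39845 CPM in NWD1Ca, against 2476 to 5900.2 CPM in NWD1, with 5 of 13 genes higher (15.6% of all genes tested were higher), and the Lgr5 stem cell list to 1604 to 2304 CPM in NWD1Ca, against 7257 to 10208 CPM in NWD1, with 4 of 12 lower; their part in the result was not tested. Without NWD1 3, 10 genes fell and Bub1 (edgeR adjusted p = 0.0969) and Bub1b (0.0827) no longer passed. With values taken as TPM the median of all genes shifts by -1.15, and 43 genes fell by limma, whose share over all genes is not given here.

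**Figure D2:**
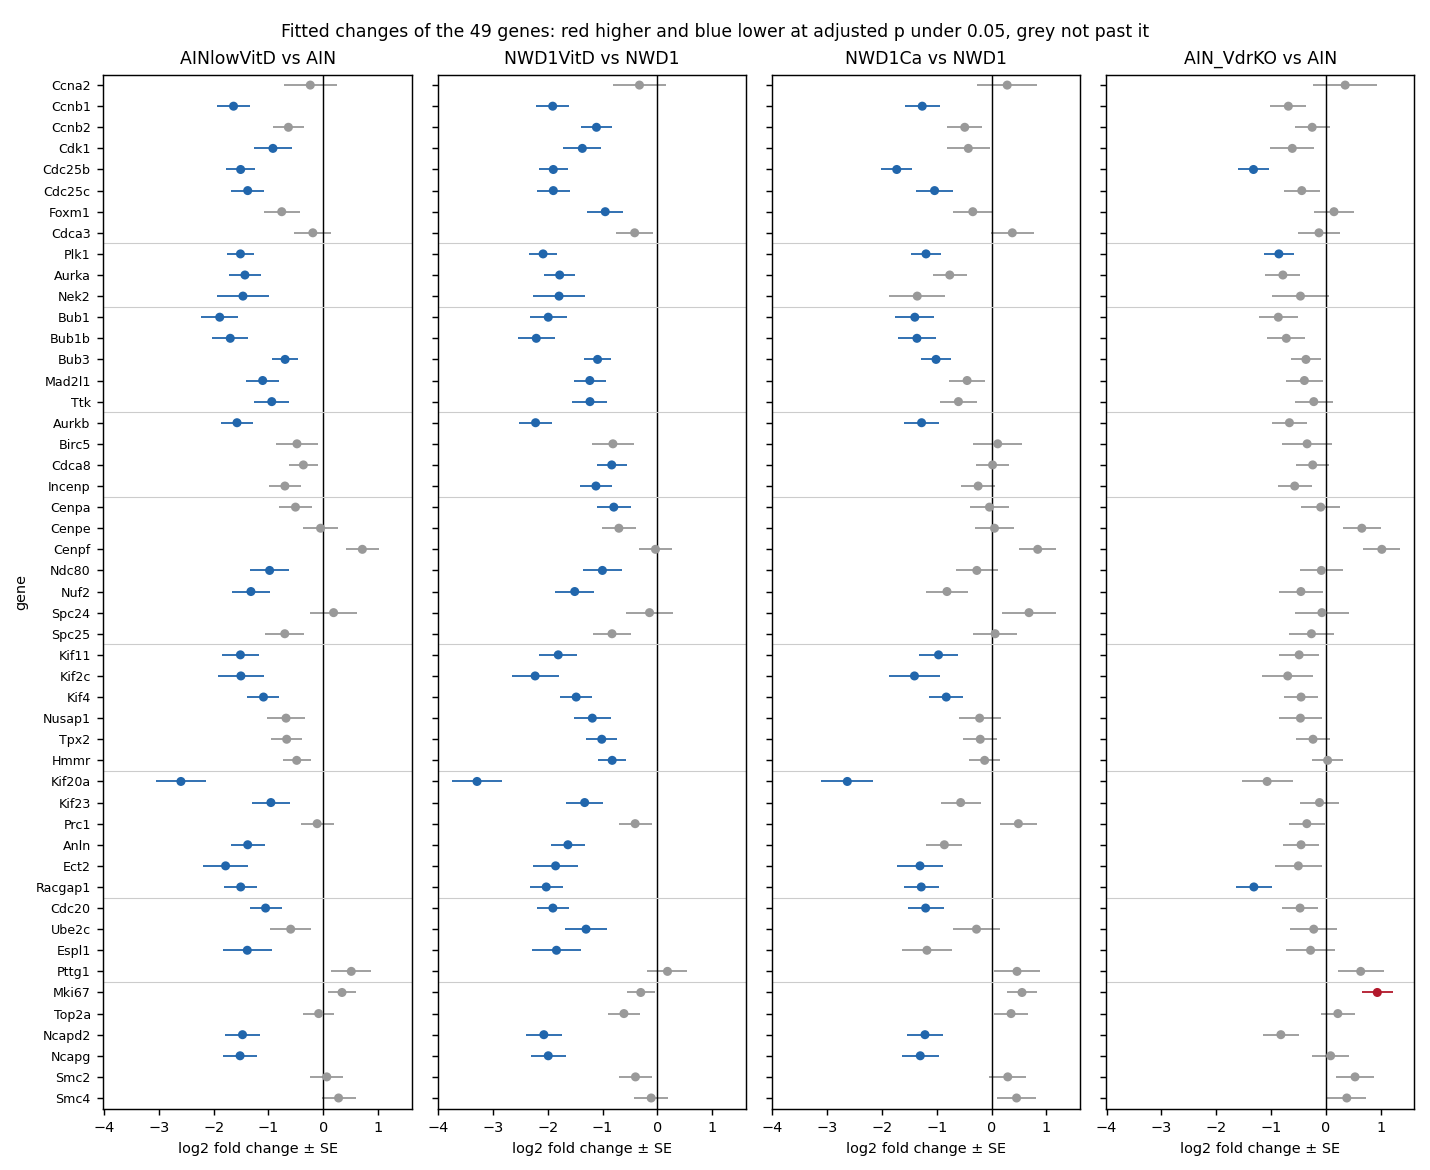
Fitted log2 fold change ± SE (horizontal axis) of each of the 49 genes (rows, in order of role, with grey lines between roles) in 4 comparisons; red is higher and blue lower at an edgeR adjusted p under 0.05, and grey did not pass. Kif20a is farthest to the left in AINlowVitD against AIN, NWD1VitD against NWD1 and NWD1Ca against NWD1, and Mki67 is the single red point, in AIN_VdrKO against AIN.

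AIN_VdrKO against AIN asks what loss of the vitamin D receptor does under the control diet, and shares the AIN libraries with AINlowVitD against AIN. Genotype cannot be told apart there from the place of AIN_VdrKO between the sets. In the libraries labelled AIN_VdrKO 3 of the 49 genes fell, against 5.09% of all genes tested, and 1 rose, against 7.44%. The median log2 fold change was -0.35, beside -0.01 over all genes tested. Cdc25b had 18.3, 30.6 and 18.5 CPM in AIN_VdrKO, against 52.8, 47.1 and 56.9 CPM in AIN. The groups did not overlap, and the log2 fold change was -1.32 ± 0.28 (edgeR adjusted p = 0.00446). Racgap1 had 38.7, 31.9 and 35.1 CPM in AIN_VdrKO, against 71.6, 100.3 and 73.2 CPM in AIN, a log2 fold change of -1.31 ± 0.33 (edgeR adjusted p = 0.0126), again without overlap. Plk1 fell by 0.86 ± 0.27 on the log2 scale (edgeR adjusted p = 0.0458).

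Mki67 rose, with 168, 156 and 204 CPM in AIN_VdrKO, against 80.3, 82.6 and 102 CPM in AIN. Each AIN_VdrKO library was above each AIN library, and the log2 fold change was 0.94 ± 0.28 (edgeR adjusted p = 0.0321). Cenpf stood beside it at 1.02 ± 0.34 (edgeR adjusted p = 0.0537), also without overlap, and did not pass. In a fit of AIN_VdrKO and AIN alone none of the 4 passed, the Mki67 call was lost without any of AIN 1, AIN 2, AIN 3 or AIN_VdrKO 3 (edgeR adjusted p from 0.0508 to 0.0849) and the Plk1 call without AIN 1, AIN 2 or any of the 3 AIN_VdrKO libraries (0.0525 to 0.131). Mki67 also lost its call with a length correction, at 0.60 (edgeR adjusted p = 0.138), and with no filter on low counts (0.076), and Plk1 with no filter (0.122), with no term for sex, at -0.66 (0.0798), and with the replicate number as a block, at -0.84 (0.0514). The Lgr5 stem cell list summed to 4090.0 to 7067 CPM in AIN_VdrKO, against 2494 to 4593 CPM in AIN, with 4 of 12 genes higher, and the enterocyte list to 8829 to 16484 CPM in AIN_VdrKO, against 17961 to 23242 CPM in AIN, with 1 of 13 lower; their part was not tested.

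AIN_VdrKO against AINlowVitD sets loss of the receptor beside low dietary vitamin D. In the libraries labelled AIN_VdrKO 1 of the 49 genes rose, against 0.685% of all genes tested (2.38% were lower), and the median log2 fold change was 0.60, beside 0.13 over all genes tested. The gene was Ncapg, with 35.0, 47.6 and 50.5 CPM in AIN_VdrKO, against 11.5, 14.5 and 13.8 CPM in AINlowVitD. The groups did not overlap, and the log2 fold change was 1.61 ± 0.35 (edgeR adjusted p = 0.0159). Kif20a and Ccnb1 came next, at 1.53 ± 0.49 and 0.95 ± 0.33 (edgeR adjusted p = 0.0942 and 0.117). In 35 genes every AIN_VdrKO library lay above every AINlowVitD library, against 16.1% of all genes tested. The goblet list summed to 8214 to 18328 CPM in AIN_VdrKO, against 46532 to 65850.0 CPM in AINlowVitD, and the enteroendocrine list to 1492 to 3063 CPM in AIN_VdrKO, against 6376 to 10148 CPM in AINlowVitD, with 2 of 8 and 2 of 11 genes lower. The enterocyte list summed to 8829 to 16484 CPM in AIN_VdrKO, against 20738 to 69224 CPM in AINlowVitD, with 1 of 13 genes lower and a median log2 fold change of -0.84. The Lgr5 stem cell list summed to 4090.0 to 7067 CPM in AIN_VdrKO, against 1195 to 3049 CPM in AINlowVitD, and the part of these lists was not tested. The count depended on the libraries and the fit: it was 8 without AIN_VdrKO 1, 0 without AIN_VdrKO 2, AIN_VdrKO 3, AINlowVitD 1 or AINlowVitD 3, where Ncapg had edgeR adjusted p of 0.0557, 0.0687, 0.058 and 0.12, and 11 with no term for sex. With values taken as TPM the median of all genes shifts by 0.74 and 41 genes were higher by limma, whose share over all genes is not given here.

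Among comparisons within a set, none of the 49 genes passed by edgeR, DESeq2 or limma. NWD1 against AIN sets the NWD1 diet beside the control diet, and there 0.106% of all genes tested were higher and 0.66% lower. The members' median log2 fold change was 0.10, beside -0.04 over all genes tested. An unadjusted edgeR p under 0.05 was found for 2 members, beside 2436 of all 16050 genes tested. In 4 genes every NWD1 library lay above every AIN library, against 5.92% of all genes tested. Cdc25b had 76.9, 94.4 and 83.8 CPM in NWD1, against 52.8, 47.1 and 56.9 CPM in AIN, so that every NWD1 library was higher, but its log2 fold change of 0.65 ± 0.26 did not pass (edgeR adjusted p = 0.219). Mki67 stood at 0.57 ± 0.26 and Cenpf at 0.59 ± 0.32 (edgeR adjusted p = 0.302 and 0.389).

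NWD2 against AIN had 0% of all genes tested called in either direction and a median of -0.06 for the members, beside 0.00 over all genes. An unadjusted edgeR p under 0.05 was found for 1 member, beside 1099 of all 16050 genes tested. In 1 gene every NWD2 library lay above every AIN library, against 3.98% of all genes tested. Ube2c, Birc5 and Cenpa stood at -0.85 ± 0.40, -0.87 ± 0.42 and -0.68 ± 0.33 (edgeR adjusted p = 0.718, 0.718 and 0.718). Ube2c had 248, 182 and 140.0 CPM in NWD2, against 399, 300.5 and 171 CPM in AIN, which overlap. AIN 3 was the lowest AIN library for it, and without AIN 3, 4 members fell, Ube2c at -1.41 (edgeR adjusted p = 0.0332) and Birc5 at -1.42 (0.0415) among them. The sign depended on the AIN libraries kept: without AIN 1, AIN 2 and NWD1 1, Ube2c stood at 0.384 and Birc5 at 0.322. On the first principal component AIN 3 (-97.64) lay nearer to the NWD2 libraries than AIN 1 (-38.62) and AIN 2 (-40.18) did. NWD2 against NWD1 had 0.00623% of all genes tested lower and a median of -0.22 for the members, beside 0.00. There 1 member had an unadjusted edgeR p under 0.05, beside 1717 of all 16050 genes tested. In 1 gene every NWD2 library lay below every NWD1 library, against 3.76% of all genes tested, and the share above was 4.97%. Its members of smallest p were Ube2c, Cdc20 and Cenpe, the kinetochore motor, at -0.89 ± 0.37, -0.57 ± 0.29 and -0.57 ± 0.31 (edgeR adjusted p = 0.382, 0.502 and 0.528).

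NWD1VitD against NWD1Ca compares the supplements on the same base diet within the second set. All 49 genes had a negative log2 fold change, with a median of -0.76, beside -0.03 over all genes tested, and none passed, as 0% of all genes did. An unadjusted edgeR p under 0.05 was found for 26 members, beside 372 of all 16050 genes tested. Aurka had 34.6, 22.0 and 22.4 CPM in NWD1VitD, against 36.5, 53.4 and 45.8 CPM in NWD1Ca, without overlap, a log2 fold change of -1.02 ± 0.31 (edgeR adjusted p = 1). Plk1 and Mki67 stood at -0.89 ± 0.27 and -0.86 ± 0.28 (edgeR adjusted p = 1 and 1). Mki67 had 135, 92.9 and 97.0 CPM in NWD1VitD, against 135, 208 and 221 CPM in NWD1Ca, which did not overlap by a narrow margin. In 15 genes all NWD1VitD libraries were below all NWD1Ca libraries, against 5.03% of all genes tested, and the share above was 3.53%. The genes move together across libraries, so 49 equal signs are not 49 separate observations. The enterocyte list summed to 29281 to 56546 CPM in NWD1VitD, against 21021 to 39845 CPM in NWD1Ca, with a median log2 fold change of 0.64. The Paneth list summed to 16183 to 68939 CPM in NWD1VitD, against 10697 to 19928 CPM in NWD1Ca, with a median of 1.59, all 9 genes positive and 4 at an unadjusted p under 0.05, and the part of both lists was not tested. AINlowVitD against NWD1Ca had a median of -0.41 for the members, beside 0.02, with 0% of all genes called. There 5 members had an unadjusted edgeR p under 0.05, beside 209 of all 16050 genes tested. In 8 genes all AINlowVitD libraries were below all NWD1Ca libraries, against 5.49% of all genes tested, and the share above was 6.26%. Mki67, Top2a and Prc1 stood at -0.78 ± 0.26, -0.74 ± 0.29 and -0.72 ± 0.31 (edgeR adjusted p = 1 each).

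**Figure D3:**
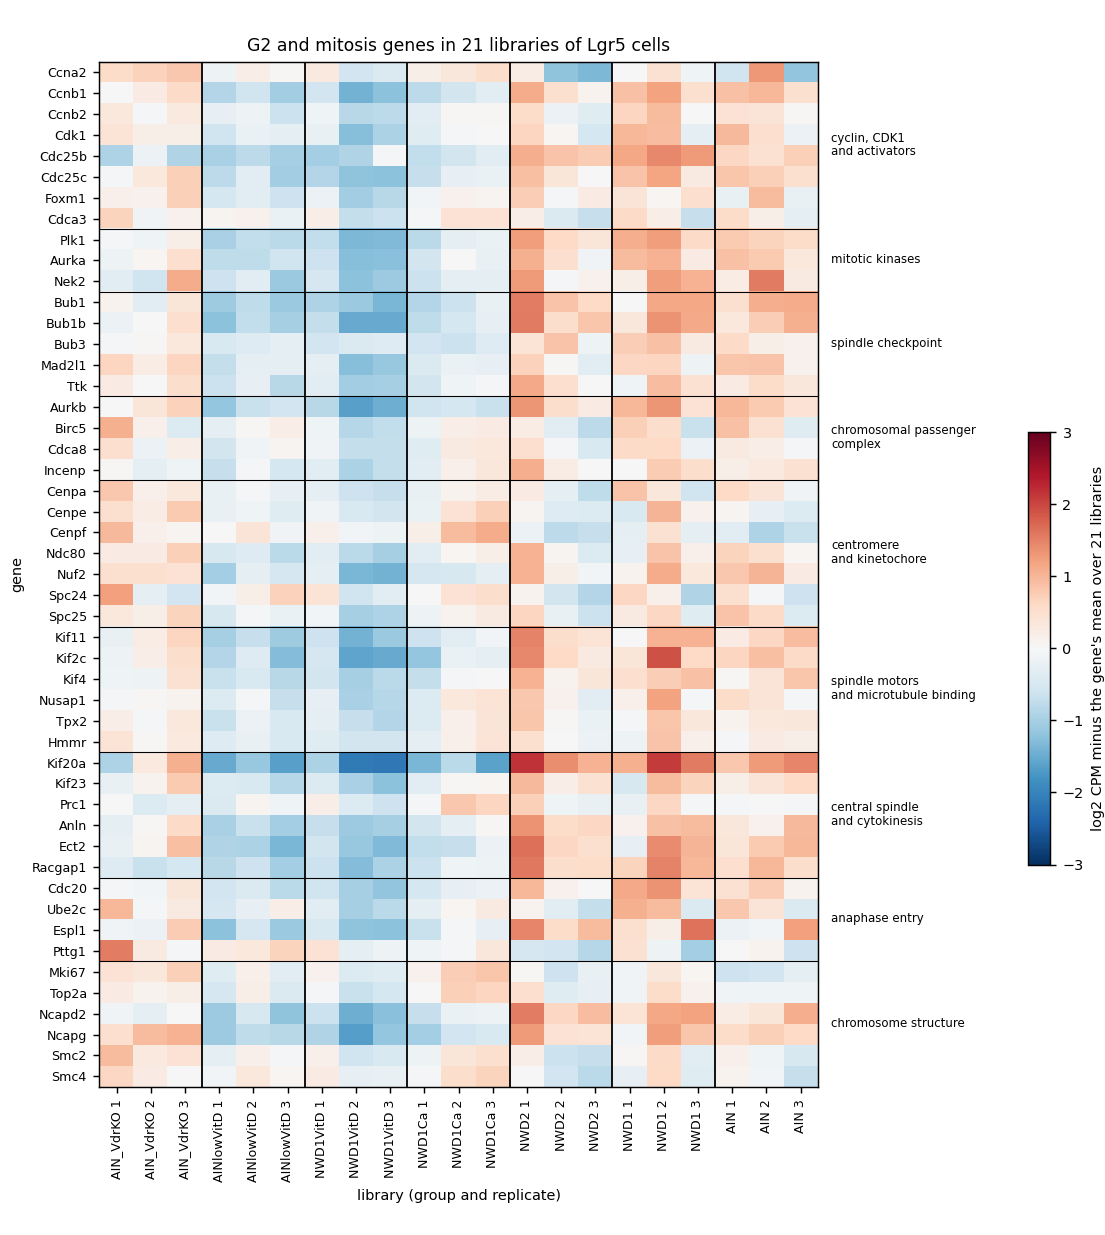
Log2 CPM of each of the 49 genes (rows, by role) in each of the 21 libraries (columns, by group), minus the gene's mean over the libraries; red is above and blue below that mean. Most rows are bluest in AINlowVitD, NWD1VitD and NWD1Ca, while rows such as Mki67, Smc4 and Cenpf are not, and NWD2 1, highest of its group in 48 of 49 genes, is red in most rows.

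Other genes of the cycle are given from lists chosen for their function. Of 72 further mitosis genes tested, 34 were lower and 1 higher in AINlowVitD against AIN, 49 and 2 in NWD1VitD against NWD1, 19 and 4 in NWD1Ca against NWD1, and 5 and 1 in AIN_VdrKO against AIN. The medians were -0.89, -1.21, -0.62 and -0.15 on the log2 scale. Kifc1, a minus-end kinesin of the spindle, averaged 0.971 CPM in AINlowVitD, against 12.3 CPM in AIN, a log2 fold change of -3.61 ± 0.39 (edgeR adjusted p = 1.01e-05). Kif18b, a kinesin that shortens astral microtubules, averaged 5.44 CPM in NWD1VitD, against 34.6 CPM in NWD1, a log2 fold change of -2.69 ± 0.32 (edgeR adjusted p = 1.62e-05). Of 53 replication and S phase genes, 18 were lower in AINlowVitD, 36 in NWD1VitD, 17 in NWD1Ca and 2 in AIN_VdrKO in the same comparisons, with medians of -0.69, -1.29, -0.60 and -0.21. Pold1, the catalytic subunit of DNA polymerase delta, averaged 17.7 CPM in NWD1VitD, against 95.1 CPM in NWD1, a log2 fold change of -2.45 ± 0.33 (edgeR adjusted p = 4.02e-05). Over all genes tested, 16.3% were lower in AINlowVitD against AIN and 20.6% in NWD1VitD against NWD1. The share was 14.9% in NWD1Ca against NWD1 and 5.09% in AIN_VdrKO against AIN. The AIN_VdrKO counts of both lists lie near that share. In the other comparisons named here, both replication genes and mitosis genes were among the lower calls.

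Of 13 subunits and activators of the anaphase promoting complex, 6 were lower and 1 higher in AINlowVitD against AIN. Cdc23, a scaffold subunit, averaged 9.59 CPM in AINlowVitD, against 45.7 CPM in AIN, a log2 fold change of -2.24 ± 0.31 (edgeR adjusted p = 0.00011). Of 15 inhibitors of the cycle tested, 3 were higher and 1 lower in AINlowVitD against AIN, 5 and 1 in NWD1VitD against NWD1, 4 and 1 in NWD1Ca against NWD1, and 1 and 1 in AIN_VdrKO against AIN. Over all genes tested, 15.1% were higher in AINlowVitD against AIN, 19.9% in NWD1VitD against NWD1 and 15.6% in NWD1Ca against NWD1, so counts of 3 and 4 of 15 lie near the background. In the same order 16.3%, 20.6% and 14.9% of all genes tested were lower. In AIN_VdrKO against AIN 7.44% were higher and 5.09% lower. Cdkn2b, the inhibitor p15 of Cdk4 and Cdk6, averaged 66.7 CPM in NWD1VitD, against 10.6 CPM in NWD1, a log2 fold change of 2.79 ± 0.40 (edgeR adjusted p = 7.28e-05). Cdkn1c, the inhibitor p57, averaged 15.0 CPM in AINlowVitD, against 3.43 CPM in AIN, a log2 fold change of 2.18 ± 0.46 (edgeR adjusted p = 0.00207). Of 11 G1 cyclins, kinases and regulators, 3 were lower and 1 higher in AINlowVitD against AIN, and 5 and 1 in NWD1VitD against NWD1 as in NWD1Ca against NWD1. Myc averaged 25.9 CPM in NWD1VitD, against 190.3 CPM in NWD1, a log2 fold change of -2.90 ± 0.40 (edgeR adjusted p = 5.20e-05).

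In some groups 1 library was the highest for nearly all 49 genes, and in others none was. NWD2 1 had the highest CPM of its group in 48 of 49 genes, NWD1VitD 1 in 47, NWD1Ca 3 in 39, AINlowVitD 2 in 38, NWD1 2 in 36 and AIN_VdrKO 3 in 30, with AIN_VdrKO 1 in 17. In AIN no library led in CPM, with 21, 14 and 14 genes highest in AIN 1, AIN 2 and AIN 3. That depended on the scale: in TPM, AIN 3 was highest in 27 genes, AIN 1 in 12 and AIN 2 in 10. AIN_VdrKO 3 was highest of its group in 44 genes in TPM. Summed over the 49 genes, NWD2 1 held 5314 CPM beside 3374 and 2871 in NWD2 2 and NWD2 3, and NWD1VitD 1 held 2868 CPM beside 1866 and 1980.5. Of the 6 leading libraries, NWD2 1, NWD1VitD 1 and AINlowVitD 2 had the lowest enterocyte median of their group: 7.93 log2 CPM in NWD2 1 beside 10.49 and 10.64, 8.81 in NWD1VitD 1 beside 10.51 and 9.84, and 8.77 in AINlowVitD 2 beside 9.71 and 10.60. The other 3 did not: NWD1Ca 3 had 9.38, against 8.69 in NWD1Ca 2, NWD1 2 had 7.46, against 7.09 in NWD1 1, and AIN_VdrKO 3 had 8.77, against 7.77 in AIN_VdrKO 1.

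With group means removed, the median correlation over the 1176 pairs of the 49 genes was 0.57 across the 21 libraries, which share depth, scaling and the makeup of each sort. It ranged from -0.48 for Pttg1 and Anln to 0.97 for Spc24 and Birc5. Plk1 followed the mean of the other genes most closely, at 0.93, and Nusap1 and Tpx2 came next at 0.92 and 0.91. Cdc25b followed it least, at 0.03, with Espl1 at 0.20, Bub3 at 0.25 and Pttg1 at 0.27. The mean of the 49 correlated at 0.99 with the other mitosis genes, 0.88 with the S phase genes, 0.77 with the Lgr5 stem cell list and -0.81 with the enterocyte list; these are descriptions across 21 libraries after centring by group. In TPM the 49 genes summed to 483 to 5144 over the libraries, and the ratio of that sum to the S phase sum stayed between 1.1 and 1.84.

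**Figure D4:**
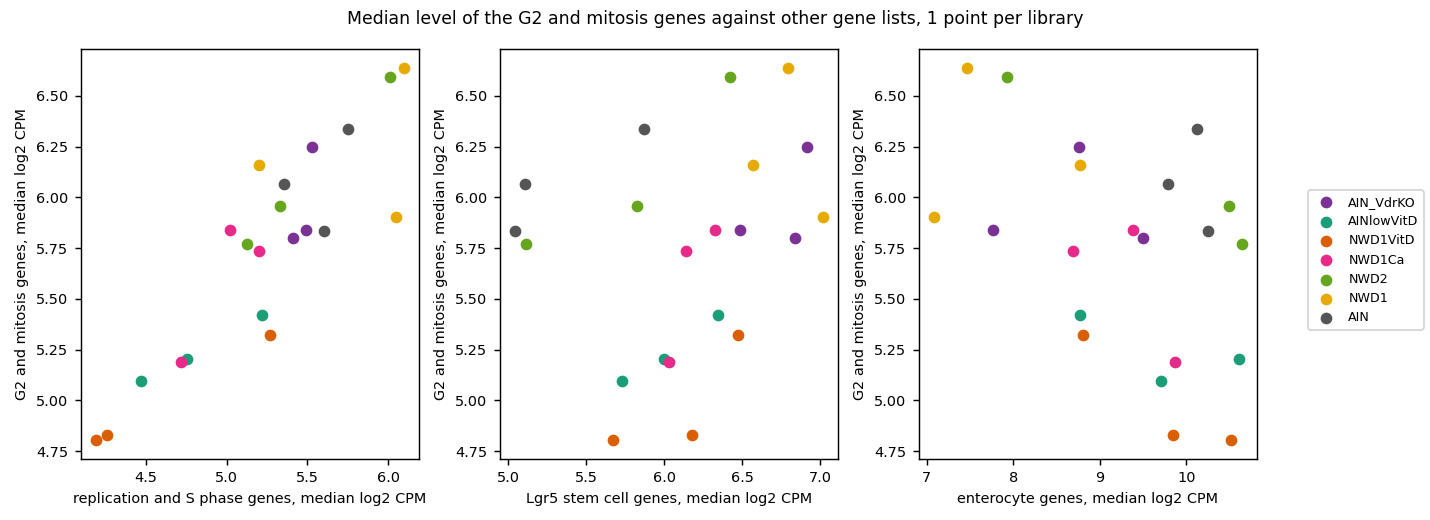
Median log2 CPM of the 49 G2 and mitosis genes (vertical axis) against the median of the S phase, Lgr5 stem cell and enterocyte lists (horizontal axes), with 1 point per library, coloured by group. NWD1VitD 2 and 3 lie lowest (4.80 and 4.83), and NWD1 2 and NWD2 1 lie highest (6.64 and 6.60).

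Grouped by the promoter letters described first, 19 genes had a CHR and at least 2 CCAAT boxes, 10 a CHR and 1 CCAAT, 6 only 1 of the 2 motifs and 5 neither, taking the richer window of a gene. In AINlowVitD against AIN, 9 of 19, 8 of 10, 5 of 6 and 2 of 5 of them fell. In NWD1VitD against NWD1 the counts were 14, 8, 5 and 3, and in NWD1Ca against NWD1 6, 6, 2 and 0. Of the 6 promoters of the first group printed above, those of Aurka, Cdk1, Cdc20, Bub1 and Bub3 belong to genes that fell in AINlowVitD and that of Ccnb2 to one that did not pass (edgeR adjusted p = 0.0956). Mki67 and Top2a, which did not pass in these 3 comparisons, held 3 and 6 CCAAT boxes with 2 and 4 CHR matches.

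Several genes overlap another gene in the GENCODE annotation, which the unstranded libraries cannot separate. An exon of 11 of the 49 genes overlaps a gene on the opposite strand, by 977 bases for Kif20a with Cdc23, 699 for Ncapg with Lcorl, 683 for Kif4 with Pdzd11 and 670 for Prc1 with Rccd1, and by 53 to 299 bases for the other 7, Plk1, Ccna2, Cdc20, Cdc25b, Nek2, Nusap1 and Ube2c. Kif20a and Cdc23 both fell in AINlowVitD, and the sources used here do not say how reads of their shared bases were counted. Processed copies of Ccnb2 and Kif4 are listed as Ccnb2-ps and Kif4-ps, so reads of these 2 genes may have been shared or lost.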

How the data were processed

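RNA of 21 libraries of sorted Lgr5-EGFP cells was sequenced after SMART-Seq v4 amplification and Nextera XT library preparation, a protocol that does not mark strand. The authors deposited a table of read counts per gene and a table of TPM; the submitters' processing notes name STAR 2.4.2a, HTSeq 0.6.1, edgeR and build mm9, with no roles. Groups came from the labels. In groups that held both sexes, libraries of unlike sex came from different mice. Whether libraries of the same sex and group came from separate mice was not established, so p-values measure the spread between these libraries. Counts of genes that passed edgeR's filterByExpr were scaled by TMM and fitted in edgeR 4.0.16 (R 4.3.3) with group and sex over all 21 libraries; quasi-likelihood F tests gave 10 comparisons, with Benjamini-Hochberg adjustment over 16050 genes and a threshold of 0.05. The SE is the log2 fold change divided by the square root of F. Gene counts ran from 19889795 to 115435120 per library. Alternatives used DESeq2 1.42.0, limma 3.58.1 on log2(TPM + 1), other filters, scalings and sample sets. Scripts were tested on simulated data. The 49 genes and all lists were chosen with earlier results of these data known. Named genes were up to 8 that passed, by smallest p, or 3 of smallest p where fewer than 3 passed, 8 genes given in every group, and up to 2 per other list; other genes were named after their values were seen. Promoters are RefSeq windows of build GRCm38.p6, and exon overlaps come from GENCODE, so neither was matched to mm9 coordinates.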

Additional observations from a re-analysis of the deposited data

How the results depend on the processing

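Of recomputed values other than counts of members, 737 kept their direction and, where tested, their side of the threshold. Of the rest, 32 no longer passed, 10 newly passed, 5 reversed and 28 moved. All that moved were ratios to the AIN mean in CPM in place of TPM, for Plk1, Ccnb1, Cdk1, Mki67, Top2a, Aurka, Foxm1 and Bub3. The count of members that passed moved in 10 of 15 settings for AIN_VdrKO against AINlowVitD. It moved in 3 of 16 for AINlowVitD against AIN and 2 of 16 for AIN_VdrKO against AIN. It moved in 2 of 17 for NWD1Ca against NWD1 and 1 of 17 for NWD2 against AIN. Where no value shows it, the cause was not tested. By limma on log2(TPM + 1), where the median of all genes shifts, 44 genes passed in AINlowVitD against AIN, 43 in NWD1Ca against NWD1, 41 in AIN_VdrKO against AINlowVitD and 2 in AIN_VdrKO against AIN (0 higher and 2 lower, beside 1 and 3 by edgeR). The limma shares over all genes are not given here, so these counts cannot be read as particular to the members. Fits of only the groups compared, with fewer residual degrees of freedom, called 0 in AIN_VdrKO against AIN and 0 in AIN_VdrKO against AINlowVitD, where the count was 4 with no filter, 11 with no term for sex and 2 by DESeq2. Without AIN 1, AIN 2 and NWD1 1, chosen after seeing the data, AIN is the single library AIN 3, taken to vary like the other groups; 15 genes passed in AINlowVitD against AIN, and in NWD2 against AIN Ube2c reversed to 0.384, Birc5 to 0.322 and Cenpa to 0.016 (edgeR adjusted p = 1 each). NWD1 1 and NWD1 2 held the largest shares of spike-in counts. Without them, also chosen after seeing the data, NWD1 is the single library NWD1 3. Ube2c in NWD2 against NWD1 then reversed to 0.028 and Cdc20 to 0.045. Leaving out 1 library at a time gave 17 to 26 genes in AINlowVitD against AIN (17 without AINlowVitD 3), 10 to 20 in NWD1Ca against NWD1 (10 without NWD1 3), 28 to 37 in NWD1VitD against NWD1, 3 to 5 in AIN_VdrKO against AIN, 0 to 8 in AIN_VdrKO against AINlowVitD and 0 to 4 in NWD2 against AIN (4 without AIN 3). With the replicate number as a block the counts were 26 in AINlowVitD against AIN, 15 in NWD1Ca against NWD1, 36 in NWD1VitD against NWD1, 3 in AIN_VdrKO against AIN (Plk1 lost, adjusted p = 0.0514), 1 in AIN_VdrKO against AINlowVitD and 0 in the other comparisons. Deviations of same-numbered libraries correlated at -0.191 to 0.409, and in 0 of 10 comparisons was every correlation over 0.1. In NWD1 against AIN they were 0.316, 0.011 and 0.409. The main fit used no pairing, and these correlations cannot tell whether same-numbered libraries were handled together.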
